A study of Homo sapiens with 6 samples.

Results

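HMGA1, HMGA2, IGF2BP1, IGF2BP2, IGF2BP3 and LIN28B are growth-associated genes of the embryo that many tumours express and whose messenger RNAs carry target sites of the let-7 microRNAs. These 6 genes were chosen by name, with their fold changes in these libraries already known, so their values in the comparison below are a description and carry no test. Of the 6, 5 had a row among the 33542 genes of the deposited table, and all 5 were among the 18685 genes with enough counts to be tested. LIN28B has no row and was not analysed here beyond its annotated sequence.

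RNA was sequenced from T24 cells, an established human line from a bladder carcinoma, grown in serum-containing medium and transfected with small interfering RNA by a lipid reagent. The siNC group (3 libraries) received a control RNA and the siTRAIP group (3 libraries) an RNA against TRAIP, an E3 ubiquitin ligase with a RING domain, known for its work at replication forks. All cells carry the T24 genome and went through transfection, and no untransfected cells were used here. These samples hold 1 arm against TRAIP, so loss of TRAIP and other actions of that RNA cannot be told apart, and no label ties the replicates to separate cultures, so the spread below may be technical.

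HMGA1 and HMGA2 are small proteins that bind the minor groove of AT-rich DNA through AT-hooks and bend chromatin. IGF2BP1, IGF2BP2 and IGF2BP3 are RNA-binding proteins that hold and stabilise transcripts in the cytoplasm. LIN28B blocks the maturation of let-7, and let-7 in turn represses HMGA2, LIN28B and the IGF2BP genes through sites in their 3' untranslated regions. The pathway is therefore a loop that is active in embryonic tissue, is silent in most adult tissue and reappears in carcinomas, bladder carcinoma among them.

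The let-7 microRNAs share 1 seed, bases 2 to 8, and that seed defines the sites searched for. RefSeq (GRCh38.p14) holds 9 mature let-7 and miR-98 sequences from 12 genes, and all 9 carry the seed GAGGUAG. The following 4 are shown to make the shared part visible, with the seed in capitals.
hsa-let-7a-5p: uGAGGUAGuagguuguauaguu
hsa-let-7b-5p: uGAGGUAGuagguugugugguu
hsa-let-7i-5p: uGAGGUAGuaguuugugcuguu
hsa-miR-98-5p: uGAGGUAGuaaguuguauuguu

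A target site was scored in the 3' untranslated region of the annotated transcripts (GENCODE release 29, GRCh38) as CTACCTCA (8mer), CTACCTC (7mer-m8) or TACCTCA (7mer-A1) on the transcript strand, each position counted once in the longest class that it fits. In the principal transcript, HMGA2 held 7 such sites, of which 1 was an 8mer, 3 were 7mer-m8 and 3 were 7mer-A1. It was the only one of 12259 searched protein-coding genes with as many as 7 sites. All 7 are shown because they set HMGA2 apart from the other members, with the match in capitals and the strand of the transcript (plus).
HMGA2 site 1 (8mer), chr12:65963293-65963320: ggggcgccaacgttcgatttCTACCTCA
HMGA2 site 2 (7mer-A1), chr12:65964378-65964405: atgaaagacctgaataccactTACCTCA
HMGA2 site 3 (7mer-m8), chr12:65964528-65964555: tatatccccactactcaataCTACCTCt
HMGA2 site 4 (7mer-A1), chr12:65964890-65964917: aaatattaccctccaagtctgTACCTCA
HMGA2 site 5 (7mer-m8), chr12:65964940-65964967: actaattgacttgcaaagacCTACCTCc
HMGA2 site 6 (7mer-m8), chr12:65965793-65965820: tgtacaatcaaaacacactaCTACCTCt
HMGA2 site 7 (7mer-A1), chr12:65965812-65965839: actacctcttaagtcccagtaTACCTCA

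Site 1 begins at base 21 of the region, and sites 6 and 7 lie next to each other near the end of the region. The sites of the other members are fewer. IGF2BP1 and LIN28B held 5 each, IGF2BP2 held 2, and IGF2BP3 and HMGA1 held 1 each. For the other 5 genes 1 site each is shown, the 8mer nearest the stop codon where there is one. The strand is plus for HMGA1, IGF2BP1 and LIN28B and minus for IGF2BP2 and IGF2BP3.
IGF2BP1 site 1 (8mer), chr17:49051056-49051083: aatgctgtgtgcgaagtaaaCTACCTCA
IGF2BP2 site 1 (8mer), chr3:185644220-185644247: agaaaaacacacagaagaagCTACCTCA
IGF2BP3 site 1 (8mer), chr7:23311795-23311822: aaacgtgcatttttactcaaCTACCTCA
LIN28B site 1 (8mer), chr6:105078807-105078834: cctttacccggttgcaaagtCTACCTCA
HMGA1 site 1 (7mer-m8), chr6:34245824-34245851: atttttcctctgttcacaaaCTACCTCt

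The site of HMGA1 is the only one in the gene and is followed by a base other than A, so it is not the longest class of match. As a share of all genes searched, 16.2% held at least 1 site, 2.93% held at least 2 and 8 genes held 5 or more, HMGA2 and IGF2BP1 among them.

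Not every HMGA2 transcript holds these sites. Coding transcripts annotated with an incomplete end were not searched. Of the 7 coding transcripts of the gene that were searched, 1 holds the 7 sites, HMGA2-204, whose 3' untranslated region is 3003 bases long. The other 6 held 0 sites, although the region of HMGA2-210 is 7421 bases long. The transcript with the longest coding sequence, HMGA2-206, is among those without a site. The deposited counts are per gene, so the share of each transcript is not known here.

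TRAIP, the targeted gene, was read first as a check of the labels. Its level was 26.6, 28.3 and 28.4 CPM (gene counts scaled to library size with TMM factors) in siNC replicates 1 to 3 and 12.5, 14.7 and 11.6 CPM in siTRAIP replicates 1 to 3. All siTRAIP libraries lay below all siNC libraries, and the log2 fold change was -1.11 with an SE of 0.07 (edgeR adjusted p = 6.74e-10). Across the table, 2393 of 18685 tested genes passed the threshold (edgeR quasi-likelihood test, adjusted p under 0.05), 1396 higher and 997 lower in siTRAIP. The split turned with scaling: by total count alone it was 838 higher and 2050 lower, and with limma on log2(RPKM + 0.1) 461 higher and 1059 lower, with the median of all genes at -0.06 in both instead of -0.0017. Totals ran from 39111793 to 70439496 counts per library, the lowest and the highest both in siTRAIP, and siTRAIP replicate 3 stood apart (chi-square per degree of freedom 17.4 and 18.01 against the other 2, 3.35 to 7.93 in other pairs). T24 cells showed high KRT8, KRT7 and KRT18 (from 497 to 1686 CPM in siNC) but 10 of 18 urothelial and epithelial markers lay under 1 CPM in every library, KRT5, TP63 and CDH1 among them, and VIM stood at 725 CPM. PPARG, a urothelial differentiation factor, stood at 18.4 CPM. Of the 10 tested urothelial and epithelial markers 0 rose and 1 fell, KRT7 (-0.18, SE 0.04, edgeR adjusted p = 0.00375). Of 7 tested mesenchymal and 3 tested fibroblast markers 0 passed with edgeR and 0 with DESeq2 (1 and 0 at an unadjusted p under 0.05), and endothelial markers summed to at most 0.263 CPM. Of 10 listed leukocyte markers only CD68 was tested, whose exons are shared by 85.8% with another gene. CD68 rose (0.31, SE 0.06, edgeR adjusted p = 0.000917), a call lost with limma on the RPKM scales (adjusted p up to 0.0800).

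In siTRAIP cells HMGA2 stood at 0.434 of the control level, HMGA1 and IGF2BP2 were modestly lower, and IGF2BP1 and IGF2BP3 were nearly level. All 5 members lay lower in siTRAIP, and 3 passed the threshold as falls (HMGA2, HMGA1 and IGF2BP2) against 5.34% of all genes tested. As rises 0 passed with edgeR (0 also with DESeq2 and at an unadjusted p under 0.05), against 7.47% of all genes tested and 12.8% called in either direction. The groups did not overlap for 4 of the 5, against 29.1% of all genes tested. Since the members were proposed from this contrast, nothing is read from these counts. Their median log2 fold change was -0.22, and 50.4% of all genes tested lay lower in siTRAIP. In bulk RNA, fewer cells that express a gene and less RNA per cell cannot be told apart.

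**Figure D1:**
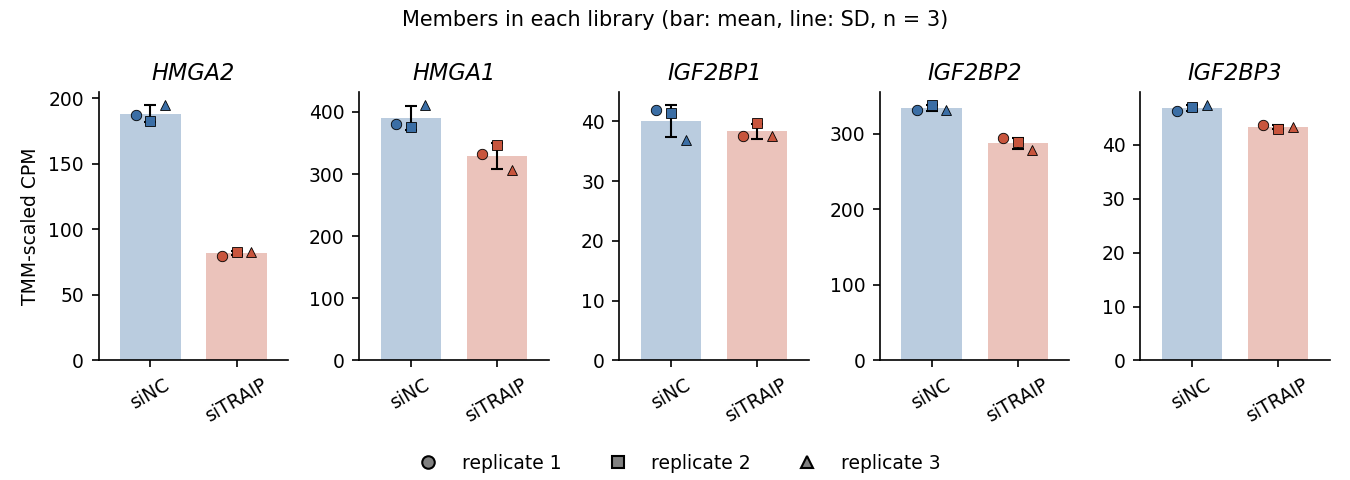
The vertical axes give TMM-scaled CPM from 0 for HMGA2, HMGA1, IGF2BP1, IGF2BP2 and IGF2BP3, each on its own scale; bars are means, lines are SD (n = 3 libraries a group) and symbols are libraries. The 3 siTRAIP libraries of HMGA2 sit between 79.9 and 83.0 CPM, far below the siNC libraries at 182.8 to 195.1 CPM, and only the groups of IGF2BP1 overlap.

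HMGA2 (ENSG00000149948.13, chr12:65824131-65966295, plus strand, GRCh38) encodes the embryonic member of the HMGA pair. Its level was 187.4, 182.8 and 195.1 CPM in siNC replicates 1 to 3 and 79.9, 82.7 and 83.0 CPM in siTRAIP replicates 1 to 3. The siNC libraries were all high and close together, the siTRAIP libraries all low and closer still, and nothing lay between 83.0 and 182.8 CPM. The mean went from 188.4 ± 6.21 to 81.9 ± 1.72 CPM (SD, n = 3 each). At -1.20 on the log2 scale (SE 0.04), the change was the lowest of 10699 genes with a mean of at least 5 CPM and ranked 25 from the bottom among all genes tested. The raw count behind siNC replicate 1 was 10747, so counting error is small beside the difference.

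HMGA1 (ENSG00000137309.19, chr6:34236873-34246231, plus strand) encodes the HMGA protein that most proliferating cells make. Its level was 381.3, 376.1 and 411.5 CPM in siNC and 332.4, 347.1 and 306.4 CPM in siTRAIP replicates 1 to 3. The groups did not overlap, and siTRAIP replicate 3 was the lowest and siNC replicate 3 the highest. The mean went from 389.6 ± 19.1 to 328.6 ± 20.6 CPM (SD, n = 3 each), with a log2 fold change of -0.25 (SE 0.05). The annotation lists 8 pseudogenes of HMGA1. The 7 with a row summed to 58 to 99 counts a library and no single one passed 32, beside 21866 counts for HMGA1 itself in siNC replicate 1.

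IGF2BP2 (ENSG00000073792.15, chr3:185643739-185825056, minus strand) encodes the family member that many adult tissues keep. Its level was 332.1, 338.6 and 331.5 CPM in siNC and 294.6, 288.7 and 279.2 CPM in siTRAIP replicates 1 to 3. All siTRAIP libraries lay below all siNC libraries, with siTRAIP replicate 3 again lowest. The mean went from 334.1 ± 3.91 to 287.5 ± 7.73 CPM (SD, n = 3 each), with a log2 fold change of -0.22 (SE 0.04).

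IGF2BP3 (ENSG00000136231.13, chr7:23310209-23470467, minus strand) encodes the oncofetal member that is often measured as a tumour marker. Its level was 46.2, 47.0 and 47.3 CPM in siNC and 43.7, 42.9 and 43.3 CPM in siTRAIP replicates 1 to 3. The groups did not overlap, yet the gene did not pass the threshold across all genes, with a log2 fold change of -0.11 (SE 0.05). MALSU1, on the other strand, shares 17.9% of the exonic bases of IGF2BP3. Its own log2 fold change of -0.12 (SE 0.07) also missed the threshold (edgeR adjusted p = 0.321), and with an unknown strand setting of the counting the reads of the 2 genes cannot be told apart there.

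IGF2BP1 (ENSG00000159217.9, chr17:48997412-49055650, plus strand) encodes the member most tied to embryonic tissue. Its level was 41.8, 41.4 and 36.9 CPM in siNC and 37.6, 39.7 and 37.6 CPM in siTRAIP replicates 1 to 3. The groups overlapped, siNC replicate 3 being the lowest of all 6 libraries. The siNC mean was 40.0 ± 2.71 CPM and the siTRAIP mean 38.3 ± 1.25 CPM (SD, n = 3 each), with a log2 fold change of -0.06 (SE 0.05) that missed the threshold.

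**Figure D2:**
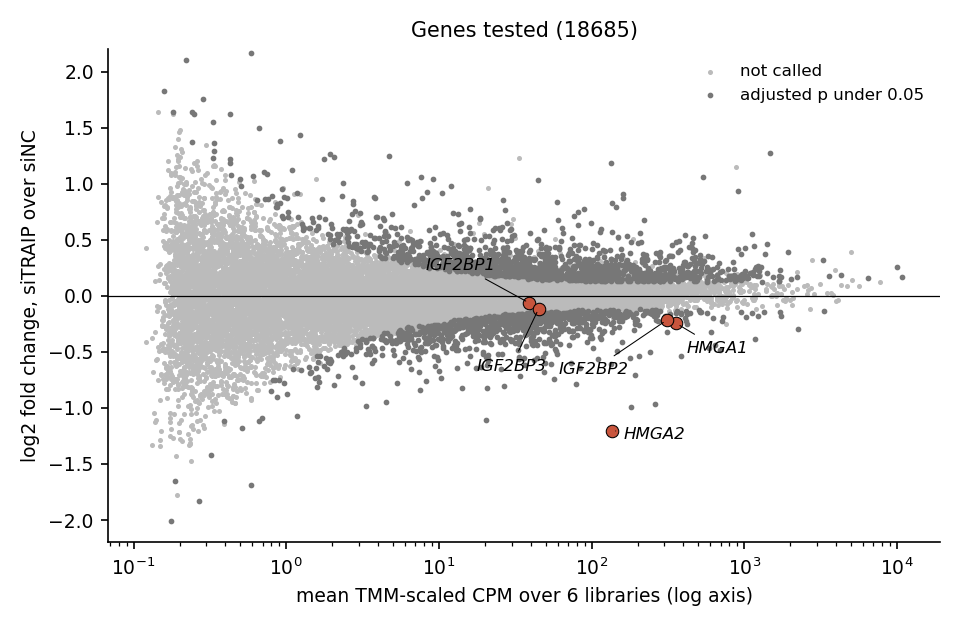
The horizontal axis gives the mean TMM-scaled CPM over the 6 libraries (log axis) and the vertical axis the log2 fold change of siTRAIP over siNC for the 18685 genes tested, with genes of adjusted p under 0.05 darker and the 5 members in red. HMGA2 lies alone at -1.20 below genes of like level, while the other 4 members lie between -0.25 and -0.06.

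To compare members with each other, levels were set per length. In the deposited RPKM, which divide by the summed exon length of the gene, the siNC means ran from HMGA1 (170.9 ± 9.68) over IGF2BP2 (72.0 ± 0.229), HMGA2 (12.5 ± 0.517) and IGF2BP3 (5.62 ± 0.0848) to IGF2BP1 (4.48 ± 0.280), and no neighbours in that order overlapped in their siNC libraries. In siTRAIP, HMGA2 had 5.20 ± 0.146 RPKM beside 4.98 ± 0.00258 RPKM for IGF2BP3 (SD, n = 3 each), close together though their libraries did not overlap. The length matters for HMGA2, whose summed exons of 15403 bases hold several long alternative ends. Per kilobase of the principal transcript (4473 bases), HMGA2 had 42.1 ± 1.39 CPM with siNC and 18.3 ± 0.384 CPM with siTRAIP, above IGF2BP3 (11.02 and 10.2 CPM) in both groups. The order of the 5 was the same on both length scales, but the distance between HMGA2 and IGF2BP3 was not.

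Ratios within a library do not depend on scaling between libraries. The count ratio of HMGA2 to HMGA1 was 0.491, 0.486 and 0.474 in siNC and 0.240, 0.238 and 0.271 in siTRAIP replicates 1 to 3. HMGA2 thus fell further than HMGA1 in every siTRAIP library, and the ratio ended at 0.516 of its siNC mean. As a share of the counts of both HMGA genes, HMGA2 made up 32.2% to 33.0% in siNC and 19.2% to 21.3% in siTRAIP. Against IGF2BP2 the ratio of HMGA2 went from a mean of 0.564 to 0.285, and against IGF2BP1 and IGF2BP3 it ended at 0.452 and 0.470 of its siNC mean, with no overlap of groups in any of the 4 ratios. IGF2BP2 to HMGA1, by contrast, was 0.859 ± 0.0484 in siNC and 0.876 ± 0.0407 in siTRAIP (SD, n = 3 each) with overlapping groups, so a difference between these 2 was not seen beyond the spread. Within the IGF2BP family, IGF2BP2 made up 79.1% to 79.7% of the counts in siNC and 77.5% to 78.4% in siTRAIP.

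**Figure D3:**
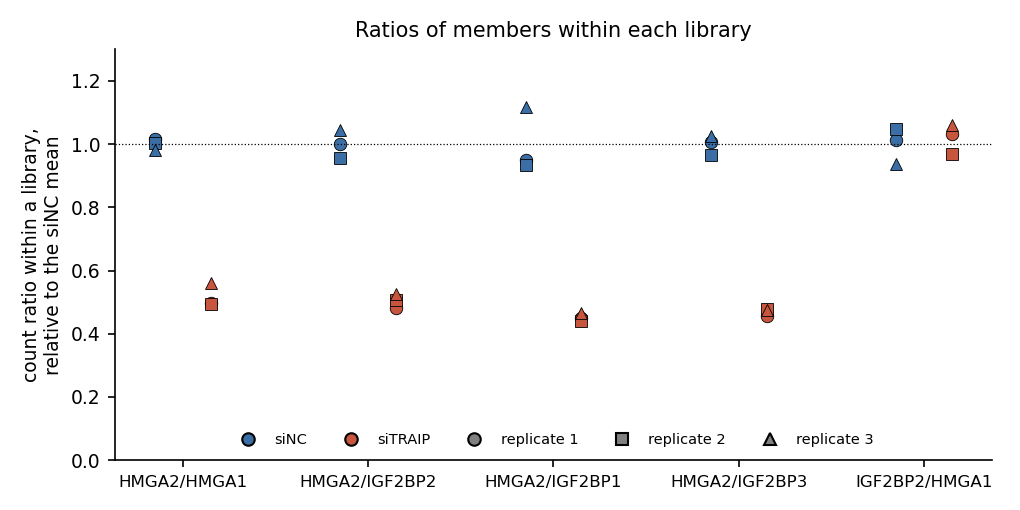
The vertical axis gives the ratio of counts of 2 members within a library, divided by the mean of that ratio in siNC; blue symbols are siNC and red symbols siTRAIP libraries. The 4 ratios with HMGA2 on top sit near 0.5 in siTRAIP, from 0.452 to 0.516 of the siNC mean on average, and IGF2BP2 to HMGA1 stays near 1.

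The members were grouped as let-7 targets, so that they hold sites is no finding. The number of sites was set beside the fold changes of all searched genes. With the transcript of the longest coding sequence, 1887 of 12094 genes (15.6%) held a site. Of these, 10.2% rose and 8.59% fell by the edgeR threshold, against 9.64% and 6.95% of all genes searched, and the median log2 fold change was -0.00036 against -0.0027. Genes with 3 or more sites numbered 74, of which 7 rose and 10 fell, with a median of -0.018. Their median 3' untranslated region had 6984 bases against 1030 bases over all genes. HMGA2 is not among these 74, since its transcript with the longest coding sequence, HMGA2-206, holds 0 sites. On the principal transcript, where HMGA2 is included, 79 genes held 3 or more sites, of which 8 rose and 11 fell, with a median of -0.024. The 15 genes with 4 sites there had a median of -0.096, and 1 rose and 3 fell. The members do not follow their number of sites on the principal transcript. HMGA2 with 7 sites stood at -1.20 on the log2 scale, IGF2BP1 with 5 at -0.06 and IGF2BP2 with 2 at -0.22. HMGA1 and IGF2BP3 with 1 each stood at -0.25 and -0.11. Other genes with 5 or more sites split as well. ARID3B (-0.36, SE 0.10, edgeR adjusted p = 0.0173) fell, ONECUT2 (0.53, SE 0.15, adjusted p = 0.0242) and NR6A1 (0.34, SE 0.11, adjusted p = 0.0459) rose, and FIGN (-0.17, SE 0.08) and HEMK1 (0.12, SE 0.10) did not pass. These genes were named after their values were seen.

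**Figure D4:**
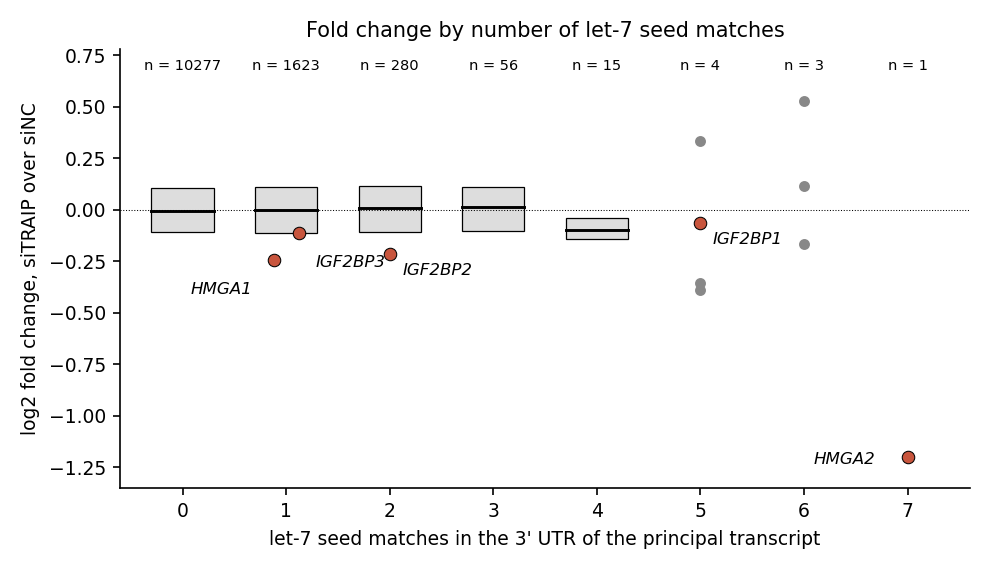
The horizontal axis gives the number of let-7 seed matches in the 3' untranslated region of the principal transcript and the vertical axis the log2 fold change of siTRAIP over siNC; grey boxes run from the lower to the upper quartile with the median as a line for classes of 5 or more genes, grey points are single other genes, red points are members, and n counts genes. The medians of classes 0 to 3 lie at or near 0, the 15 genes with 4 sites have a median of -0.096 with both quartiles (-0.14 and -0.038) below 0, the points with 5 and 6 sites lie on both sides of 0, HMGA2 is the only gene with 7 sites, and IGF2BP1 with 5 sites lies near 0.

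A different short word was seen in the same region. ACAGTCT and CAGTCTA, words picked on the fold changes of these very libraries, are held by 15.8% of principal 3' untranslated regions, and 14.4% of the genes that hold one fell, against 6.94% of all genes searched. HMGA2 holds both as ACAGTCTA between sites 3 and 4, shown with the word in capitals. IGF2BP1 holds ACAGTCT at 2 places and did not pass the threshold, and HMGA1, IGF2BP2 and IGF2BP3 hold neither word on the transcript strand. As the words were picked on this contrast, these shares support nothing about it.
HMGA2 word, chr12:65964564-65964591: caacgaatttACAGTCTAgtacttatta

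The let-7 machinery itself was read next, from a list of 30 genes for processing, tailing and silencing. Of 27 tested, 1 rose and 3 fell (14.8% called, against 12.8% of all genes tested), with a median of -0.0060. LIN28A and TRIM71, which the list holds, have no row in the deposited table, nor has LIN28B. This list and those below were chosen with earlier results known, so their shares carry no test. AGO2, the slicing Argonaute that carries let-7, fell from 65.5 ± 4.04 to 42.8 ± 0.399 CPM (SD, n = 3 each; log2 fold change -0.61, SE 0.05, edgeR adjusted p = 8.31e-09). TNRC6A, its silencing partner, fell by 0.22 on the log2 scale (SE 0.04, edgeR adjusted p = 0.00137). PRKRA, a partner of DICER1, fell by 0.31 (SE 0.08, edgeR adjusted p = 0.0123). It missed the threshold without siNC replicate 3, siTRAIP replicate 1 or siTRAIP replicate 2 (adjusted p from 0.0553 to 0.102). DROSHA, the nuclear enzyme that cuts primary microRNAs, rose by 0.19 (SE 0.05, edgeR adjusted p = 0.00766), and lost the call by total count alone and on the RPKM scales (adjusted p up to 0.179). The tailing enzymes that LIN28 proteins recruit, TUT4 (-0.0060, SE 0.05) and TUT7 (0.05, SE 0.05), and the exonuclease DIS3L2 (0.09, SE 0.05) did not pass, nor did DICER1 (-0.12, SE 0.05), which is itself a let-7 target; these 4 were named for their place in the loop after their values were seen.

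Mature let-7 was not measured, since the libraries were made with a messenger RNA kit. Of 22 host transcripts and precursor genes of the family, 9 were tested, with 11.1% called against 12.8% of all genes tested. Of the 18 with a row, 12 lay under 1 CPM in every library. MIR100HG, which hosts let-7a-2, rose from 22.3 ± 0.918 to 27.8 ± 1.99 CPM (SD, n = 3 each; log2 fold change 0.32, SE 0.06, edgeR adjusted p = 0.000997). The other 8 did not pass, among them MIRLET7DHG (0.14, SE 0.13), HUWE1 (0.12, SE 0.04, edgeR adjusted p = 0.0553), which hosts let-7f-2 and miR-98, and WDR82 (-0.16, SE 0.15), which hosts let-7g. HUWE1 passed as a rise in 4 of 15 other settings: with DESeq2, with a filter at 1 CPM, and without siTRAIP replicate 2 or siTRAIP replicate 3 (adjusted p from 0.0201 to 0.0492). The call of MIR100HG was lost with limma on the RPKM scales (adjusted p from 0.0870 to 0.0879).

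Other genes described as let-7 targets moved in both directions. Of 60 listed, 50 were tested, 5 rose and 6 fell (22.0% called, against 12.8% of all genes tested), with a median of -0.05. A site was held by 44 of 49 with a searched 3' untranslated region, 5 of these rising and 5 falling. CCND1, the G1 cyclin, fell from 683.4 ± 6.18 to 494.6 ± 23.9 CPM (SD, n = 3 each; log2 fold change -0.47, SE 0.04, edgeR adjusted p = 5.14e-08). CCNJ, another cyclin, held 0 sites on its principal transcript and fell by 0.53 (SE 0.08, edgeR adjusted p = 5.77e-05). RRM2, the small subunit of ribonucleotide reductase, rose by 0.33 (SE 0.04, edgeR adjusted p = 3.73e-06), with 20.2% of its exons shared with another gene, and SMARCC1, a BAF remodeller subunit, rose by 0.29 (SE 0.05, edgeR adjusted p = 0.00021). TGFBR1, NAP1L1 and NR6A1 also rose. The call of NAP1L1 was lost without siNC replicate 1 or siNC replicate 3 (adjusted p from 0.0611 to 0.0668), that of NR6A1 without each single library other than siTRAIP replicate 3 (adjusted p from 0.0726 to 0.155).

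The genes around HMGA2 on chromosome 12 were read for changes at the locus. Of 14 tested neighbours and internal transcripts, 3 rose and 0 fell (21.4% called, against 12.8% of all genes tested), with a median of 0.0061. DESeq2 also called 0 falls, and at an unadjusted p under 0.05 edgeR gave 1. RPSAP52, an antisense transcript whose gene spans the HMGA2 start (chr12:65758020-65826997) and shares no exonic base with HMGA2, had 1.80, 1.43 and 1.51 CPM in siNC and 2.63, 2.33 and 2.00 CPM in siTRAIP replicates 1 to 3. The siTRAIP libraries all lay above the siNC libraries while HMGA2 lay far below, and the log2 fold change was 0.54 with an SE of 0.17 (edgeR adjusted p = 0.0325) on 79 to 138 counts a library. That call was lost without siNC replicate 2, siNC replicate 3, siTRAIP replicate 1 or siTRAIP replicate 2 (adjusted p from 0.0888 to 0.137), and by total count alone (adjusted p = 0.0522). MSRB3, the nearest listed coding gene before HMGA2, rose by 0.25 (SE 0.05, edgeR adjusted p = 0.00106), and LLPH, the nearest after it, missed the threshold at 0.23 (SE 0.10). CAND1, further along, rose by 0.18 (SE 0.06, edgeR adjusted p = 0.0419). It missed the threshold without siNC replicate 1, 2 or 3 or without siTRAIP replicate 3 (adjusted p from 0.115 to 0.164). CAND1 also missed it in 4 of 9 other settings, total count alone and the RPKM scales among them (adjusted p up to 0.399).

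Among 27 genes described as regulators of HMGA2, 26 were tested, 3 rose and 4 fell, with a median of -0.022. The share called was 26.9%, against 12.8% of all genes tested. NRAS (-0.26, SE 0.05, edgeR adjusted p = 0.000426), FOSL1 (-0.22, SE 0.04, adjusted p = 0.000573) and RELA (-0.21, SE 0.04, adjusted p = 0.00223) fell, which encode a RAS GTPase, an AP-1 subunit and an NF-kB subunit. TGFBR1, a receptor kinase of the TGF-beta pathway that induces HMGA2 in epithelial cells, rose by 0.25 (SE 0.05, edgeR adjusted p = 0.00112), and EZH2, the PRC2 methyltransferase, rose by 0.16 (SE 0.04, adjusted p = 0.0147), a call lost in 4 of 6 leave-one-out fits (adjusted p from 0.0524 to 0.0803; all but those without siTRAIP replicate 2 or siTRAIP replicate 3). RPSAP52, given above, was the third that rose. The remaining fall was TGFBR2, the other TGF-beta receptor gene listed (-0.14, SE 0.04, edgeR adjusted p = 0.0325). TGFBR1 and TGFBR2 thus moved in opposite directions, and TGFBR2 was named after its values were seen.

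Genes described as bound or regulated by HMGA2 moved in both directions too. Of 28 listed, 22 were tested, 3 rose and 4 fell (31.8% called, against 12.8% of all genes tested), with a median of 0.0078. DNMT1, the maintenance DNA methyltransferase, rose by 0.26 (SE 0.05, edgeR adjusted p = 0.00248) and AKT1 by 0.20 (SE 0.05, adjusted p = 0.00364), while EGFR fell by 0.16 (SE 0.04, adjusted p = 0.0100) and JUNB by 0.46 (SE 0.13, adjusted p = 0.0181). The third that rose, E2F1 (0.22, SE 0.07, edgeR adjusted p = 0.0366), kept its call only without siTRAIP replicate 3 among the leave-one-out fits. The call of AKT1 was lost without siNC replicate 2 (adjusted p = 0.0506), that of EGFR without siNC replicate 1, siNC replicate 2 or siTRAIP replicate 2 (up to 0.0639), and that of JUNB without siNC replicate 3 or siTRAIP replicate 1 (up to 0.0711).

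Transcripts described as bound by the IGF2BP proteins were listed as 36 genes. Of these, 32 were tested, 4 rose and 5 fell (28.1% called, against 12.8% of all genes tested), with a median of -0.04. CTGF, a secreted matrix protein gene, fell from 45.4 ± 0.209 to 36.1 ± 1.48 CPM (SD, n = 3 each; log2 fold change -0.33, SE 0.05, edgeR adjusted p = 4.99e-05), beside CCND1 above. PEG10, an imprinted retrotransposon-derived gene, rose by 0.26 (SE 0.05, edgeR adjusted p = 0.000277), and TYMS, thymidylate synthase, by 0.23 (SE 0.04, adjusted p = 0.000398), with 46.6% of its exons shared with ENOSF1 on the other strand. MKI67 (0.17, SE 0.05, edgeR adjusted p = 0.0423) and E2F1 also passed as rises, MKI67 with overlapping groups and with its call lost in 5 of 6 leave-one-out fits, all but that without siTRAIP replicate 3 (adjusted p up to 0.212).

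The genes most like HMGA2 over the 6 libraries were sought among 9176 protein-coding genes with a mean of at least 5 CPM, by the root mean square difference of log2 CPM after each gene was centred on its own mean. The closest were TRAIP (0.120), FABP5 (0.123), REXO1 (0.204), STARD4 (0.205) and HBEGF (0.217). TRAIP itself was thus the nearest profile: HMGA2 and TRAIP had log2 fold changes of -1.20 and -1.11. FABP5, a fatty acid carrier with 13 annotated pseudogenes, went from 345.2 to 176.3 CPM, HBEGF, an EGFR ligand, from 33.8 to 19.3 CPM, STARD4, a cholesterol carrier, from 26.4 to 14.8 CPM, and REXO1 from 18.1 to 10.2 CPM. Since the measure ranks genes by their likeness to a gene chosen for its fall, these values are a description.

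The member values moved little with the processing. Over 15 other settings the log2 fold change ran from -1.26 to -1.12 for HMGA2, from -0.31 to -0.20 for HMGA1, from -0.28 to -0.20 for IGF2BP2, from -0.17 to -0.11 for IGF2BP3 and from -0.12 to -0.03 for IGF2BP1. HMGA2, HMGA1 and IGF2BP2 stayed past the threshold in all 15, and IGF2BP1 in none. IGF2BP3 passed in 1, by total count alone, where all genes together shift by -0.06. The lists were less steady. By total count alone all genes also shift by -0.06, and of 18685 genes tested 838 rose and 2050 fell. There the let-7 targets gave 3 rises and 13 falls of 50 tested, and the let-7 machinery 0 and 9 of 27. The HMGA2 regulators gave 1 and 7 of 26, and the genes downstream of HMGA2 2 and 5 of 22. The IGF2BP transcripts gave 2 and 9 of 32, and the HMGA2 neighbours 1 and 1 of 14. With limma on log2(RPKM + 0.1), which shifts all genes by -0.06, 461 of 18685 genes tested rose and 1059 fell. On that scale the let-7 targets gave 2 rises and 5 falls, the HMGA2 regulators 0 and 6, and the genes downstream of HMGA2 0 and 3. The IGF2BP transcripts gave 2 and 6, the let-7 machinery 0 and 2, and the HMGA2 neighbours 0 and 0, of the same numbers tested.

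**Figure D5:**
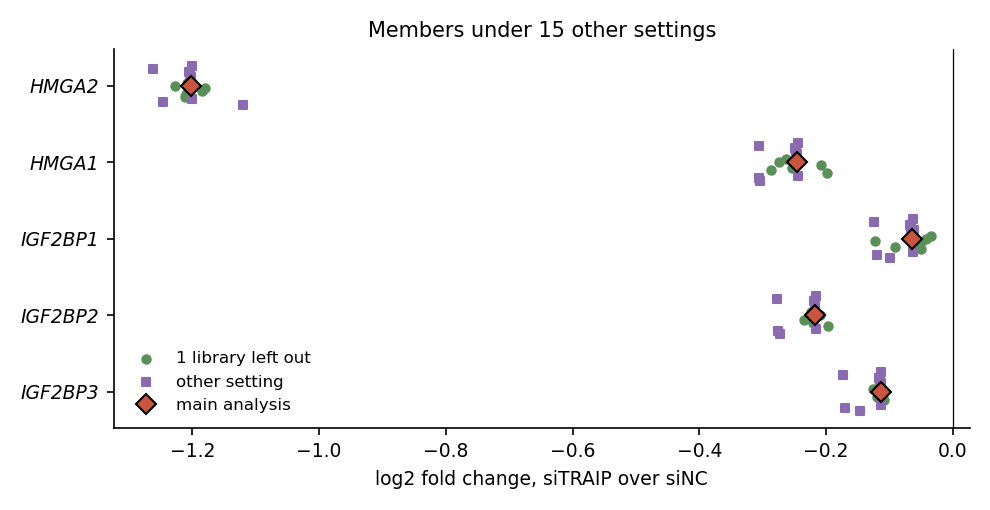
The horizontal axis gives the log2 fold change of siTRAIP over siNC for each member; diamonds are the analysis reported here, green points leave out 1 library and purple squares change the normalization, filter, tool or unit. HMGA2 keeps between -1.26 and -1.12 and none of the 5 members crosses 0.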

How the data were processed

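RNA was sequenced from T24 cells in 6 libraries, 3 siNC and 3 siTRAIP, grouped by the sample titles. The table that the authors deposited holds whole-number counts of each gene and RPKM values, which divide the counts by summed exon length and library total. GRCh38, Subread 1.5.1, featureCounts and Trimmomatic 0.36 are named per the submitters' processing notes. Aligner, annotation release and strand setting: not given in the sources used here. Library kits were stranded per the labels' protocols.

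Counts were tested with edgeR 4.0.16 in R 4.3.3 (filterByExpr, TMM, robust quasi-likelihood F-test, 2-sided, Benjamini-Hochberg over 18685 genes, threshold 0.05). An SE was taken as |log2 fold change| over the root of the F statistic. CPM use TMM-scaled library sizes. DESeq2 1.42.0, limma 3.58.1 on log2(RPKM + 0.1) and log2(RPKM + 1), other scalings and filters, the replicate block and each library left out were alternatives. The edgeR step was tested on simulated counts. Total counts ran from 39111793 to 70439496 per library, with a biological coefficient of variation of 5.73%. Even numbers made up 70.2% of counts between 1 and 10 but 50.8% of high counts, so a total may count both reads of a pair. The smallest summed count of a gene in the table is 1.

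let-7 seed matches were sought in 3' untranslated regions of at least 50 bases in GENCODE release 29, in the transcript with the longest coding sequence; the principal transcript (APPRIS) was added after seeing the data. Mature microRNAs are from RefSeq. Members and lists were chosen with earlier results of these data known. Named genes are the members, TRAIP, 4 genes of smallest adjusted p per list, called genes against their list's majority, overlapping genes and pseudogenes of members, neighbours of HMGA2, and the 5 profiles most like HMGA2 (0.5 CPM added before log2); others are marked in the text, and some results are not reported here.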

Additional observations from a re-analysis of the deposited data

How the results depend on the processing

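Counts of genes past the threshold varied more than the members did. Against 2393 called (1396 higher, 997 lower), total count alone gave 838 higher and 2050 lower, limma on log2(RPKM + 0.1) gave 1520 called with 461 higher, and limma on log2(RPKM + 1) gave 1519 called with 450 higher. Leaving out each library gave 1480 to 2622 called, 878 to 1471 higher and 602 to 1151 lower. The cause was not tested. On the RPKM scales the calls of TGFBR1, DNMT1, AKT1, MSRB3 and EZH2 as higher were lost as well. So were those of CAND1, E2F1, HMGB3, MKI67, NAP1L1, NR6A1, RPSAP52 and SSRP1 as higher and of PRKRA as lower, besides others given above. PEG10 lost its call on log2(RPKM + 1) only (limma adjusted p = 0.0504). By total count alone the calls of CAND1, E2F1, EZH2, HMGB3, MKI67, NAP1L1, NR6A1 and SSRP1 were lost too. Of genes holding a let-7 site, 8mer matches alone left 438 genes, of which 44 rose (10.05%) and 43 fell (9.82%). Their median log2 fold change was -0.019. Matches to the 7mer-m8 or 8mer left 1156 genes, of which 104 rose (8.997%) and 100 fell (8.65%). Both classes are smaller by construction. Of all genes searched, 9.64% rose and 6.95% fell, so the share that fell was higher in both classes. Their median 3' untranslated regions were longer (2941 and 2757 bases against 1030), and the difference in shares was not tested.

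The replicate block gave 2145 called, 1279 higher and 866 lower. Same-numbered libraries of the groups did not deviate together (r of 0.0030, -0.021 and -0.0071 across genes). No shared effect of the replicate number was thus seen, which cannot show whether same-numbered libraries were prepared together. The block changed no member's call.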

Other observations

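Other architectural chromatin proteins moved in both directions. Of 25 listed high mobility group proteins and linker histones, 21 were tested, 5 rose and 2 fell, with a median log2 fold change of 0.0089. The share called was 33.3%, against 12.8% of all genes tested. With limma on log2(RPKM + 0.1) and by total count alone the split turned to 2 rises and 3 falls. Over all 18685 genes tested it was 461 rises and 1059 falls with limma, and 838 and 2050 by total count. HMGN5, a nucleosome-binding protein, rose from 193.0 ± 16.96 to 248.0 ± 4.43 CPM (SD, n = 3 each; log2 fold change 0.36, SE 0.05, edgeR adjusted p = 4.53e-05), and HMGB2, a DNA-bending protein of dividing cells, rose by 0.22 (SE 0.04, adjusted p = 0.000739). SSRP1 (0.18, SE 0.04, edgeR adjusted p = 0.00667) and HMGB3 (0.21, SE 0.05, adjusted p = 0.0140) rose as well, each losing the call without 2 of the 6 libraries (siNC replicate 1 and siTRAIP replicate 1 for SSRP1, siNC replicates 1 and 3 for HMGB3). HMGN1 (-0.13, SE 0.04, edgeR adjusted p = 0.0490) and the linker histone gene H1FX (-0.19, SE 0.06, adjusted p = 0.0386) fell, and both lost the call without each single library other than siTRAIP replicate 3.

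A wider list of oncofetal genes, some of them let-7 targets such as NR6A1, was also read. Of 29 listed, 19 had a row and 11 were tested, of which 3 rose and 0 fell (DESeq2 also called 0 falls, and at an unadjusted p under 0.05 edgeR gave 1, while by total count alone 2 rose and 1 fell). These 3 were HMGN5, PEG10 and NR6A1, 27.3% of the list's tested genes, against 12.8% called over all genes tested. MDK, a heparin-binding growth factor, missed the threshold at -0.13 (SE 0.05, edgeR adjusted p = 0.0892) but passed without siTRAIP replicate 2 (adjusted p = 0.0333) and by total count alone (adjusted p = 0.0120).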
